A study of Mus musculus with 24 samples.

Results

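The mRNA of 7 cholesterol genes was measured in mouse embryonic stem cells (mESCs) that lack single subunits of the imitation switch (ISWI) family of chromatin remodelers. The genes were listed by symbol and joined to the Entrez gene IDs of the deposited count table, which found 7 of 7 among 24594 genes. They are Srebf2 (gene ID 20788), Insig1 (231070), Hmgcs1 (208715), Idi1 (319554), Fdft1 (14137), Sqle (20775) and Lss (16987). None of the 7 is itself an uptake gene, since 5 are enzymes of cholesterol synthesis and the other two regulate the pathway, so sterol uptake was described with a separate list of 9 genes. All 7 passed the filter on low counts that left 15682 genes for testing, and the lowest count of any of them in any library was 135.

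ISWI remodelers pair an ATPase, mostly SNF2H in mESCs, with noncatalytic subunits that define each complex, and the study deleted these subunits singly to ask what each complex contributes. RNA labelled as poly(A) RNA was sequenced in 24 libraries, 11 of wild-type (WT) cells and 13 of 6 deletion lines. All cells were of 129S6/SvEvTac background, were grown in serum with leukemia inhibitory factor and received no treatment. Each line was made with CRISPR–Cas9 and is 1 clone, so the deletion and the clone cannot be told apart. The labels place the libraries in 5 lettered batches without saying what a batch was. Batch A held 2 WT libraries, 2 of Rsf1Δ (RSF complex) and 2 of WstfΔ (Baz1b, WICH complex). Batch B held 2 WT libraries and 2 of Tip5Δ (Baz2a, NoRC), and batch C held 2 WT libraries and 2 of BptfΔ (NURF). Batch D held 3 WT libraries and 3 labelled Cecr2Δ (CERF). Batch E held 2 WT libraries and 2 of Acf1Δ (Baz1a, ACF and CHRAC), a gene that the study targeted in 2 rounds because of an alternative isoform.

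Cells make cholesterol from acetyl-CoA through the mevalonate pathway, which leads to squalene, and through the later sterol steps, in which squalene is closed to lanosterol and trimmed to cholesterol. When sterols are scarce in the endoplasmic reticulum, the escort protein SCAP carries the transcription factor SREBP2, the product of Srebf2, to the Golgi, where proteases free its active part to switch on genes of synthesis and uptake. INSIG proteins hold SCAP and SREBP2 back when sterols are plentiful, and Insig1 is itself a target of SREBP2, as are the synthesis enzymes and Srebf2. SREBP2 binds sterol regulatory elements in promoters, commonly beside sites for the CCAAT-box factor NF-Y and the GC-box factor SP1.

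Promoter sequences were searched because the 7 genes share this regulator. RefSeq windows of 300 bases in GRCm38.p6, from 250 bases before the annotated start to 50 after it, were given for 5 of the 7 genes, all but Sqle and Fdft1. The 3 sequences below are the 250 bases before the start of Hmgcs1 and Srebf2, which hold sterol regulatory element letters, and of Idi1, which holds none. The windows of Insig1 and Lss hold none either. Capitals mark the element and the CCAAT box, which lies on the minus strand here and so reads ATTGG.
Hmgcs1 (chr13:119690101-119690350, + strand): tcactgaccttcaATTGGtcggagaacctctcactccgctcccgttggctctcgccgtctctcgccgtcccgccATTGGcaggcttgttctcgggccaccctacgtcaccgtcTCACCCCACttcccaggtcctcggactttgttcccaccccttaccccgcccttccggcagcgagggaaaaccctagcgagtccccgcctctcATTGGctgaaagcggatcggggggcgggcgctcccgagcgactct
Srebf2 (chr15:82147019-82147268, + strand): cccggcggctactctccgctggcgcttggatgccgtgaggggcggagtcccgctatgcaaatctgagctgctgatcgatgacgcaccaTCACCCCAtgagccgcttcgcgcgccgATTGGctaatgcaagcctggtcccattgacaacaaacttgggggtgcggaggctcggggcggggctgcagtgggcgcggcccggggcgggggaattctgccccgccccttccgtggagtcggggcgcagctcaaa
Idi1 (chr13:8885356-8885605, + strand): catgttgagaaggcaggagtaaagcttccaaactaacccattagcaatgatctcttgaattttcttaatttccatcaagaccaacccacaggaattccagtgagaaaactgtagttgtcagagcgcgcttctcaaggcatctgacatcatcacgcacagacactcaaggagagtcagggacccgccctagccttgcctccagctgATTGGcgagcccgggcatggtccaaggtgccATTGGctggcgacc

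The letters TCACNCCAC, searched on both strands, were found in 1 of the 5 windows, that of Hmgcs1, at positions -137 to -129 from the start. Of all 32851 promoter windows of this length 408 (1.24%) held them. The form 1 letter shorter, TCACNCCA, which overlaps the longer one, was also found in Srebf2, at positions -162 to -155, and in 1433 windows (4.36%). CCAAT was found in 5 of 5 windows, against 12289 (37.4%) of all windows, and the GC box letters GGGCGG were found in 5 of 5, against 11714 (35.7%). Windows were given for 13 of the 16 other sterol synthesis enzymes described below, of which 12 held CCAAT, 12 held GGGCGG, 0 held TCACNCCAC and 1 (7.69%) held TCACNCCA. The plot of motif matches shows their distances from the start. A match is only a description of these letters in this window.

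**Figure D1:**
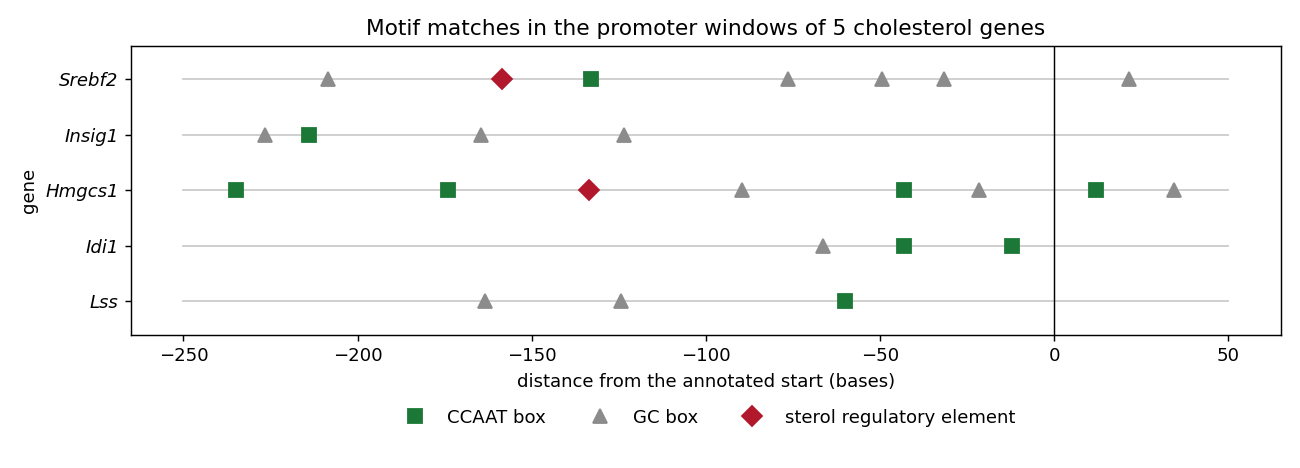
Matches to the CCAAT box (squares), the GC box (triangles) and the sterol regulatory element in its shorter form (diamonds) by distance in bases from the annotated start (x axis, 0 is the start) in the promoter windows of 5 genes (y axis). Each of the 5 windows holds a CCAAT box and a GC box, and only Hmgcs1 and Srebf2 hold the sterol regulatory element letters.

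Total counts per library ranged from 13.4 to 36.7 M (mega), with a median of 25.0 M, and the WstfΔ libraries were the shallowest at 13.6 and 13.4 M. The 4 libraries of batch C stood apart, since Rpph1 and Rmrp, RNAs without a poly(A) tail, were at 3300 to 4800 and 588 to 688 counts per M counts (CPM) there and at most at 3.39 and 2.33 CPM in the 20 other libraries. The targeted gene was lower in Rsf1Δ, WstfΔ, BptfΔ and Acf1Δ (log2 fold changes -2.26, -2.40, -1.97 and -1.72), and Baz2a in Tip5Δ was at -0.26 (edgeR adjusted p = 0.0533). Cecr2 mRNA was higher in the libraries labelled Cecr2Δ (log2 fold change 0.37, edgeR adjusted p = 0.000154), which are therefore named by their label. The study checked its clones by DNA sequencing and by western blots, and describes the targeted proteins as undetected, which RNA counts do not measure. The 6 mESC markers were present in every library, with summed levels of 2570 to 3650 CPM in WT and 3010 to 4040 CPM in the lines. The summed level of 10 primitive endoderm markers ran from 414 to 1700 CPM in WT, 5 of 6 listed trophectoderm markers were tested with a summed list level of 80.6 to 400 CPM in WT, and neural and mesoderm lists reached at most 146 and 8.28 CPM in WT. In bulk libraries, fewer cells of a type and less RNA per cell cannot be told apart.

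Per kilobase, Hmgcs1 was the highest and Idi1 the lowest of the 7 genes in every WT library. Levels are normalized CPM, that is CPM scaled by edgeR's TMM factors, and for comparison between genes they were divided by the deposited gene width in kilobases. The order depends on this width, which is 10787 bases for Lss and 3093 for Insig1. By WT median without the division, Lss was above Insig1 (59.2 and 31.4 normalized CPM) and Srebf2 above Hmgcs1 (228 and 216). Hmgcs1, the HMG-CoA synthase of the early mevalonate pathway, was highest at 51.0 ± 9.43 normalized CPM per kilobase (SD, n = 11 WT libraries). Srebf2 followed at 30.0 ± 6.99 and Fdft1, squalene synthase, at 22.9 ± 5.58. Sqle, squalene epoxidase, was at 16.2 ± 1.20, Insig1 at 10.7 ± 2.37 and Lss, lanosterol synthase, at 5.86 ± 1.17 on the same scale. Idi1, the isomerase that balances the isoprene units for chain building, was lowest at 2.85 ± 0.309. In this order each gene was above every later one in 11 of 11 WT libraries, except that Srebf2 was above Fdft1 in 8 of 11 and above Sqle in 9 of 11. In both WT libraries of batch C, Srebf2 (mean 17.3) lay below Sqle (mean 17.9) on this scale. The ranges over WT libraries overlapped for Srebf2 with Fdft1 and with Sqle, for Sqle and Insig1, and for Insig1 and Lss.

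WT cells of different batches differed in 6 of these genes, a share near that of all genes. In an F test of the batch terms with edgeR, 6 of 7 genes differed between the WT libraries of the 5 batches at an adjusted p under 0.01, all but Idi1 (edgeR adjusted p = 0.66), against 73.1% of all genes tested. Without the batch C libraries, 4 of 7 did, against 60.3% of all genes, and Sqle and Lss were then not called (edgeR adjusted p = 0.416 and 0.0172). Srebf2 varied most, 2.20-fold between the lowest and the highest WT library, from 123 to 269.9 normalized CPM with a median of 228. That rank rested on batch C, with a WT mean of 124 where the other batches had 212 to 269. The spread of Fdft1 likewise rested on batch E, with a WT mean of 139 against 80.9 to 90.3. Fdft1 varied 1.92-fold, Insig1 1.85-fold, Lss 1.71-fold and Hmgcs1 1.61-fold, while Idi1 (1.44-fold) and Sqle (1.29-fold) varied least. By the standard deviation relative to the mean of the per-kilobase levels above, Sqle was likewise the steadiest. The levels in all libraries are shown by batch in the plot of normalized CPM.

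**Figure D2:**
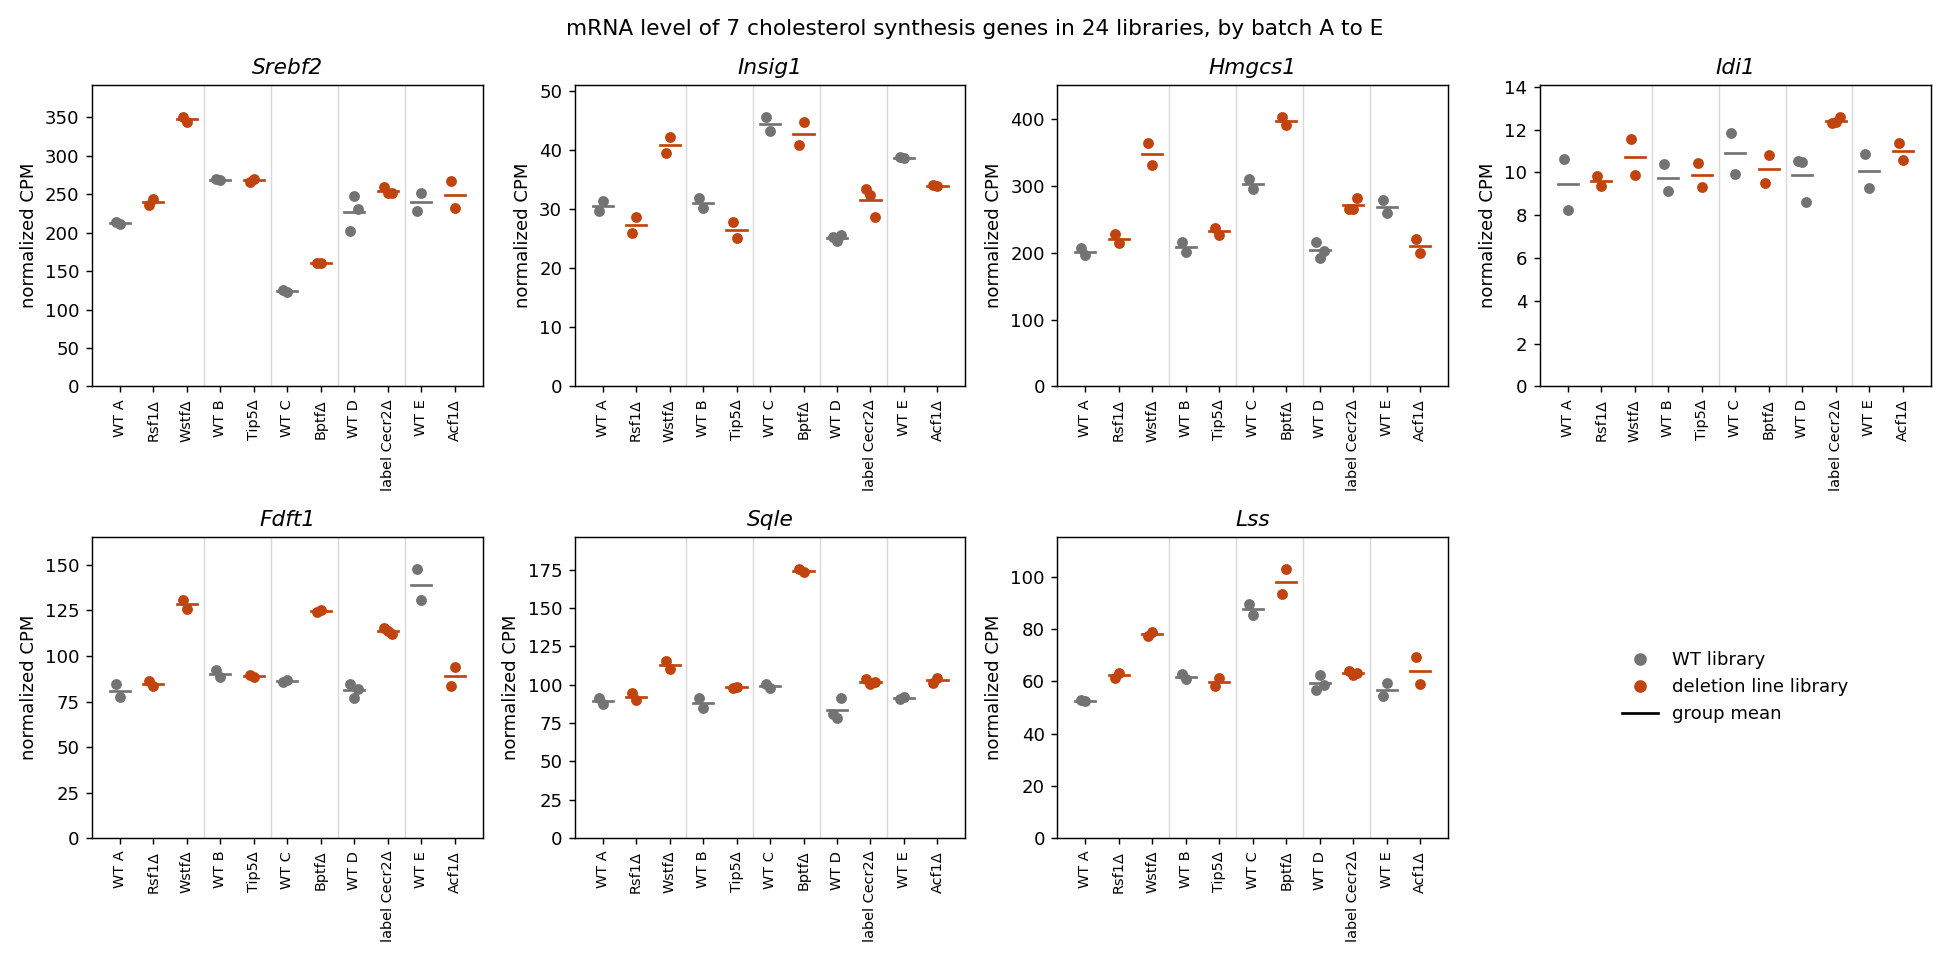
Normalized CPM (y axis, linear, from 0) of each gene in every library, grouped on the x axis by group within batches A to E, with WT libraries in grey, deletion line libraries in orange and group means as lines. Srebf2 in WT batch C, at 126 and 123, and Fdft1 in WT batch E, at 148 and 131, stand away from the WT libraries of the other batches.

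Each deletion line was set against WT of its own batch in 1 edgeR quasi-likelihood fit with batch and genotype terms over all 24 libraries. A change was called at a Benjamini-Hochberg adjusted p under 0.01 over all 15682 genes. The study's methods call the RNA-seq replicates independent and its reporting summary calls replicates biological, and all replicates of a line are of its 1 clone. Most of the cholesterol genes, but not Idi1, rose in WstfΔ, and 4 of them rose in BptfΔ and in the Cecr2Δ-labelled libraries. Hmgcs1, Fdft1 and Sqle rose in all 3 of these lines. In WstfΔ 6 of 7 rose and 0 fell, where 16.4% of all genes tested rose and 18.3% fell. In BptfΔ 4 of 7 rose and 0 fell, against 21.4% and 20.2% of all genes. In the labelled Cecr2Δ libraries 4 of 7 rose and 0 fell, against 9.52% and 8.83%. In Acf1Δ 2 of 7 fell and 0 rose, against 16.7% and 15.1%.

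In Rsf1Δ and Tip5Δ, 0 of 7 genes passed in either direction in edgeR, where 7.45% and 2.84% of all genes rose and 13.1% and 6.23% fell. At an unadjusted p under 0.05, 2 genes in Rsf1Δ (Lss and Srebf2, both at higher values) and 3 in Tip5Δ (Hmgcs1 and Sqle at higher values, Insig1 at a lower one) would pass, where 39.4% and 28.2% of all genes would. DESeq2 called 1 gene in Rsf1Δ, Lss, at a higher value, and 0 in Tip5Δ, where it called 8.34% and 3.78% of all genes higher and 11.9% and 6.01% lower. When Tip5Δ was fitted with only its own WT libraries, Hmgcs1 and Sqle passed as higher and Insig1 as lower, where that fit called 11.5% of all genes higher and 13.1% lower.

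The median log2 fold change of the 7 genes was 0.57 in WstfΔ, 0.37 in BptfΔ, 0.32 in the labelled Cecr2Δ libraries, 0.068 in Rsf1Δ, 0.057 in Acf1Δ and -0.0053 in Tip5Δ. The median of all genes tested was between -0.026 in WstfΔ and 0.015 in BptfΔ. No change of the 7 genes in any line reached the 2-fold minimum that the study's rule for differentially expressed genes (DEGs) adds, an absolute log2 fold change over 1. Of the 42 gene and line values 16 were called, against 26% of the values of all genes over the 6 lines, and in 10 of these 16 the line mean fell inside the span of all 11 WT libraries. The 6 outside it were Hmgcs1 in WstfΔ and BptfΔ, Sqle in WstfΔ, BptfΔ and the libraries labelled Cecr2Δ, and Srebf2 in WstfΔ.

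**Figure D3:**
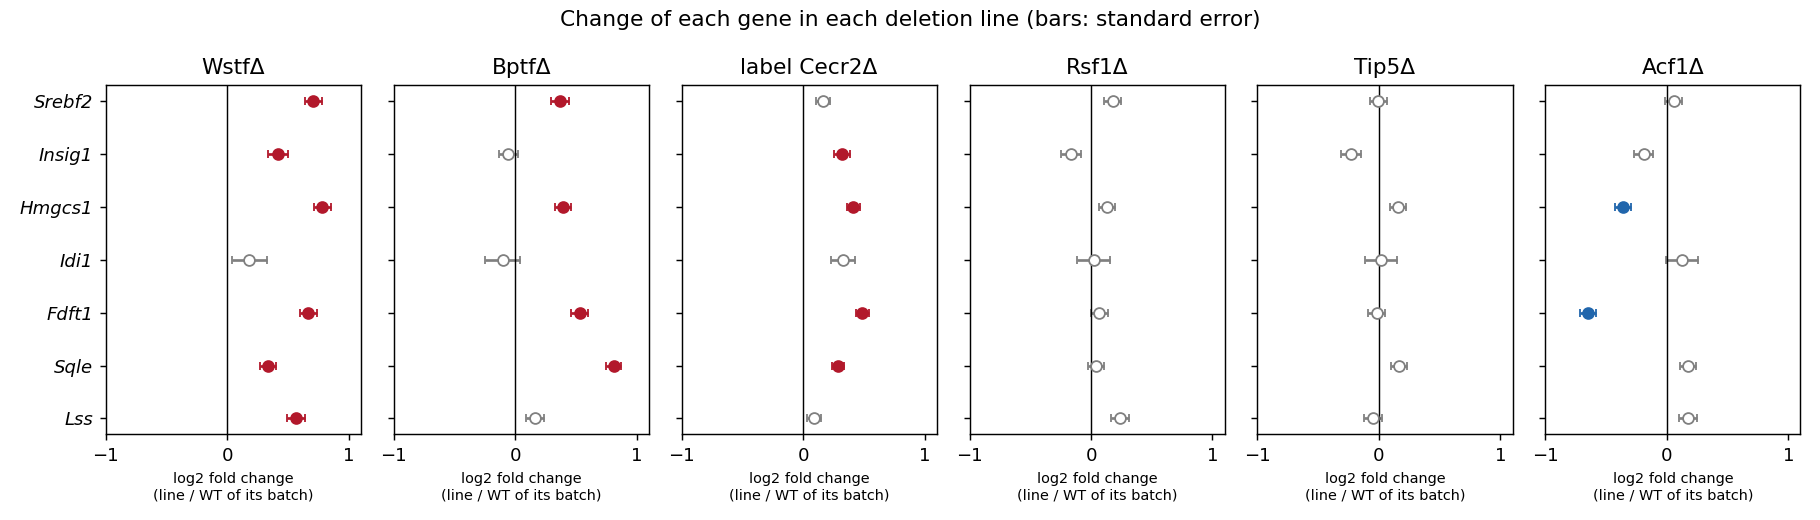
Log2 fold change (x axis) of the 7 genes (y axis, regulators first, then enzymes in pathway order) in each of the 6 deletion lines against WT of the same batch, with bars for the standard error, red for genes called higher, blue for genes called lower and open symbols for genes not called. Called values run from -0.65 for Fdft1 in Acf1Δ to 0.81 for Sqle in BptfΔ.

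Srebf2, which encodes the transcription factor SREBP2, rose in WstfΔ and BptfΔ and was not called in the other 4 lines. In batch A it was at 213 and 211 normalized CPM in WT, at 349.9 and 344 in WstfΔ and at 236 and 244 in Rsf1Δ. In batch C it was at 126 and 123 in WT and at 161 and 160.3 in BptfΔ. Both WstfΔ libraries were above all 11 WT libraries, whereas both BptfΔ libraries were above their own WT libraries but below the WT libraries of every other batch. The log2 fold change was 0.71 in WstfΔ (standard error (SE) 0.072, adjusted p = 6.9e-09 in edgeR) and 0.37 in BptfΔ (SE 0.074, adjusted p = 0.000144 in edgeR). In batch D the WT libraries were at 202, 247 and 231 and those labelled Cecr2Δ at 259, 252 and 251.5, which do not overlap but missed the threshold (log2 fold change 0.17, edgeR adjusted p = 0.032). Without WT replicate 2 of batch D, Srebf2 passed there, with a log2 fold change of 0.23 and an edgeR adjusted p of 0.00366. Tip5Δ libraries at 266 and 270.2 overlapped their WT libraries at 269.9 and 268, and Acf1Δ libraries at 267 and 232 overlapped theirs at 228 and 251. Srebf2 lies on chromosome 15 from 82147269 to 82205379, where Mir33 and Gm49502 lie within its bounds on the same strand, so reads from them could not be separated here.

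Insig1 (chromosome 5, 28071412 to 28078662), whose product retains SCAP and SREBP2 in the endoplasmic reticulum, rose in WstfΔ and the Cecr2Δ-labelled libraries. It was at 29.6 and 31.4 normalized CPM in WT of batch A and at 39.5 and 42.2 in WstfΔ. In batch D it was at 25.3, 24.6 and 25.7 in WT and at 33.5, 32.4 and 28.7 in the labelled Cecr2Δ libraries. Neither pair of groups overlapped, and both line means were within the range of all WT libraries, 24.6 to 45.6. The log2 fold changes were 0.42 (SE 0.083, adjusted p = 0.000155 in edgeR) in WstfΔ and 0.32 (SE 0.064, adjusted p = 0.000393 in edgeR) in the labelled Cecr2Δ libraries. In BptfΔ Insig1 was at 40.8 and 44.7, overlapping WT of batch C at 45.6 and 43.3, the highest WT level of the 5 batches. Its log2 fold change there was -0.055 (SE 0.081, adjusted p = 0.593 in edgeR). In Rsf1Δ, Tip5Δ and Acf1Δ its values lay below those of WT without overlap, at log2 fold changes of -0.16, -0.23 and -0.19, and none passed (edgeR adjusted p = 0.144, 0.053 and 0.051).

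Hmgcs1 (chromosome 13, 119690351 to 119708260) was called in 4 lines, higher in WstfΔ, BptfΔ and the libraries labelled Cecr2Δ and lower in Acf1Δ. In batch A the 2 WT libraries were at 207 and 197 normalized CPM, WstfΔ at 364 and 331 and Rsf1Δ at 229 and 214. In batch C WT was at 310.5 and 295 and BptfΔ at 403 and 392, the highest values of all libraries. All 4 WstfΔ and BptfΔ libraries lay above all 11 WT libraries. The rise was 1.72-fold in WstfΔ (log2 fold change 0.78, SE 0.068, adjusted p = 3.44e-10 in edgeR) and 1.31-fold in BptfΔ (log2 fold change 0.39, SE 0.067, adjusted p = 1.91e-05 in edgeR).

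In batch D, Hmgcs1 was at 216, 192 and 203 in WT and at 266, 266 and 282 in the labelled Cecr2Δ libraries, and in batch E at 279 and 259 in WT and at 220.5 and 199.8 in Acf1Δ. The groups of neither batch overlapped. The log2 fold change was 0.41 in the labelled Cecr2Δ libraries (SE 0.054, adjusted p = 1.4e-06 in edgeR) and -0.36 in Acf1Δ (SE 0.067, adjusted p = 0.000103 in edgeR). The WT libraries of batches A, B and D, at 192 to 216, were close to the Acf1Δ values. With only its own WT libraries, the Acf1Δ value was -0.34 and no longer passed (edgeR adjusted p = 0.0251). In Tip5Δ Hmgcs1 was at 237 and 227.5 against 216 and 202 in WT, with an edgeR adjusted p of 0.125. The antisense transcript Gm48342 overlaps 6190 bases of Hmgcs1, and the sources used here do not say whether counting used strand.

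Idi1 (chromosome 13, 8885606 to 8892396), isopentenyl diphosphate isomerase, was called in 0 of 6 lines by edgeR, and in 1, the labelled Cecr2Δ libraries, at an unadjusted p under 0.05. Over the 11 WT libraries it was between 8.23 and 11.9 normalized CPM. The log2 fold changes ran from -0.10 (SE 0.14) in BptfΔ to 0.33 (SE 0.10, adjusted p = 0.0148 in edgeR) in the labelled Cecr2Δ libraries. In the latter, the 3 libraries at 12.3, 12.4 and 12.6 lay above the WT libraries of their batch at 10.5, 10.5 and 8.60 and above all other WT libraries. With no filter on low counts that value passed, at an edgeR adjusted p of 0.00506. The SE of Idi1, 0.101 to 0.145 over the lines, was the largest of the 7 genes. In WstfΔ, where the other 6 rose, it was at 11.6 and 9.88 against 10.7 and 8.23 in WT, a log2 fold change of 0.18 (edgeR adjusted p = 0.323).

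Fdft1 (chromosome 14, 63145150 to 63181687), which joins farnesyl units to squalene, was called in the same 4 lines as Hmgcs1 and in the same directions. In batch A it was at 84.4 and 77.4 normalized CPM in WT and at 131 and 126 in WstfΔ. In batch C it was at 85.8 and 87.0 in WT and at 124 and 125 in BptfΔ, and in batch D at 84.6, 77.1 and 81.6 in WT and at 115, 114 and 112 in the labelled Cecr2Δ libraries. In none of these batches did the groups overlap. The log2 fold changes were 0.67 in WstfΔ (SE 0.069, adjusted p = 8.68e-09 in edgeR), 0.53 in BptfΔ (SE 0.069, adjusted p = 3.03e-07 in edgeR) and 0.49 in the labelled Cecr2Δ libraries (SE 0.054, adjusted p = 8.37e-08 in edgeR).

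In Acf1Δ, Fdft1 was at 83.8 and 93.9 normalized CPM against 148 and 131 in WT of batch E, a log2 fold change of -0.65 (SE 0.066, adjusted p = 2.27e-08 in edgeR). The WT libraries of batch E were the highest of all WT libraries for Fdft1, and the other 9 reached at most 92.1, so the Acf1Δ values were close to those of WT in the 4 other batches. Rsf1Δ and Tip5Δ overlapped their WT libraries, at log2 fold changes of 0.068 and -0.019 (edgeR adjusted p = 0.49 and 0.896). Fdft1 overlaps Ctsb on the opposite strand by 774 bases, and without strand their reads cannot be told apart there. Ctsb itself was at a log2 fold change of 0.76 in BptfΔ (edgeR adjusted p = 1.83e-10), 0.15 in WstfΔ (edgeR adjusted p = 0.0658) and -0.15 in Acf1Δ (edgeR adjusted p = 0.0571). Its part in the Fdft1 values was not tested.

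Sqle (chromosome 15, 59315092 to 59331193), the oxygen-dependent epoxidase that precedes ring closure, showed the largest rise of the 7 genes in any line, 1.75-fold in BptfΔ. Its 2 BptfΔ libraries were at 175 and 173 normalized CPM, those of WT in batch C at 101 and 98.1, and no other library of the study exceeded 116. The log2 fold change was 0.81 (SE 0.065, adjusted p = 5.01e-11 in edgeR). In batch A Sqle was at 91.7 and 87.6 in WT and at 116 and 110.5 in WstfΔ, and in batch D at 81.2, 78.2 and 91.5 in WT and at 104, 101 and 102 in the labelled Cecr2Δ libraries. These groups did not overlap, and the log2 fold changes were 0.34 (SE 0.066, adjusted p = 0.000146 in edgeR) and 0.29 (SE 0.052, adjusted p = 0.000125 in edgeR). Acf1Δ at 101 and 104.5 lay above its WT libraries at 90.8 and 91.7 but missed the threshold (log2 fold change 0.17, edgeR adjusted p = 0.0299). Tip5Δ at 98.1 and 98.5 likewise lay above WT at 91.1 and 84.5 (edgeR adjusted p = 0.0917).

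Lss (chromosome 10, 76531565 to 76557139), which closes the epoxide to lanosterol, passed the test in 1 line, WstfΔ. In batch A it was at 52.8 and 52.5 normalized CPM in WT, at 77.2 and 78.8 in WstfΔ and at 61.4 and 63.1 in Rsf1Δ. Neither line overlapped WT. The log2 fold change was 0.57 in WstfΔ (SE 0.075, adjusted p = 6.27e-07 in edgeR) and 0.24 in Rsf1Δ (SE 0.074, adjusted p = 0.0133 in edgeR). Lss in Rsf1Δ stood near the threshold and passed in DESeq2 (adjusted p = 0.00798), with only its own WT libraries (edgeR adjusted p = 0.00339) and without the batch C libraries (edgeR adjusted p = 0.00337). It also passed without WT replicate 1 of batch D or either Acf1Δ library (edgeR adjusted p = 0.0093, 0.00411 and 0.00408). In BptfΔ it was at 93.3 and 103 against 89.8 and 85.4 in WT of batch C, the WT batch with the highest Lss (log2 fold change 0.16, edgeR adjusted p = 0.0592). The libraries labelled Cecr2Δ, at 63.8, 62.53 and 63.1, lay just above WT at 56.7, 62.49 and 58.5 (edgeR adjusted p = 0.25). In Acf1Δ, at 69.3 and 58.9 against 54.2 and 59.2, Lss overlapped WT and was not called (log2 fold change 0.18, edgeR adjusted p = 0.0516), and only without Acf1Δ replicate 2, the lower one, did it pass (log2 fold change 0.29, edgeR adjusted p = 0.00416). The antisense gene 4930483K19Rik overlaps 11268 bases of Lss.

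The lines were also compared with each other in the same fit, over all 15 pairs of lines. A difference between lines was called at an adjusted p under 0.01 and an absolute log2 difference over 1. Fdft1 differed between Acf1Δ and each of 3 other lines, by 1.31 for WstfΔ minus Acf1Δ (SE 0.095, adjusted p = 2.07e-11 in edgeR), 1.18 for BptfΔ minus Acf1Δ (edgeR adjusted p = 9.37e-11) and 1.13 for the labelled Cecr2Δ libraries minus Acf1Δ (edgeR adjusted p = 7.44e-11). Hmgcs1 differed by 1.14 for WstfΔ minus Acf1Δ (SE 0.095, adjusted p = 2.56e-10 in edgeR). These are 2 of 7 genes for WstfΔ minus Acf1Δ, where 12.3% of all genes were called. They are 1 of 7 for BptfΔ minus Acf1Δ and 1 of 7 for the labelled Cecr2Δ libraries minus Acf1Δ, where 15.7% and 7.43% were. Each of these differences rests on the WT libraries of batch E, in which Fdft1 and Hmgcs1 were high compared with batches A, B and D.

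With no minimum, 44 of the 105 gene and pair values passed at an adjusted p under 0.01, against 25.2% of the values of all genes, with 0 of 7 genes in 1 pair (Rsf1Δ and Tip5Δ) and 2 to 6 in each of the others. WstfΔ and Rsf1Δ share their batch and their WT libraries, so their difference does not depend on a WT level. At an adjusted p under 0.01 with no minimum, 6 of 7 genes were higher in WstfΔ than in Rsf1Δ, all but Idi1, where 33.3% of all genes differed in either direction. The log2 difference, Rsf1Δ minus WstfΔ, ran from -0.65 for Hmgcs1 (edgeR adjusted p = 1.31e-08) to -0.29 for Sqle (edgeR adjusted p = 0.000659). WstfΔ and BptfΔ, the lines with the most DEGs, differed in 4 of 7 genes by the same rule, where 21.2% of all genes differed. The log2 difference, WstfΔ minus BptfΔ, was 0.39 for Hmgcs1, 0.48 for Insig1 and 0.40 for Lss (edgeR adjusted p = 0.00224, 0.0023 and 0.00391), and -0.48 for Sqle (edgeR adjusted p = 0.000239). Sqle was thus the gene of these 4 that rose more in BptfΔ. Several of these differences missed the threshold when 1 library was left out. For Lss, WstfΔ minus BptfΔ did so without either WT library of batch A, either WstfΔ library, WT replicate 1 of batch C or BptfΔ replicate 1 (edgeR adjusted p = 0.0115 to 0.0341). For Hmgcs1 it did so without WT replicate 2 of batch A, WstfΔ replicate 1, WT replicate 1 of batch C or BptfΔ replicate 2 (edgeR adjusted p = 0.014 to 0.0256), and for Insig1 without WT replicate 1 of batch A or C, WstfΔ replicate 2 or BptfΔ replicate 1 (edgeR adjusted p = 0.0156 to 0.02). Rsf1Δ minus WstfΔ missed it for Sqle without Rsf1Δ replicate 2 or WstfΔ replicate 1 (edgeR adjusted p = 0.0158 and 0.0175), and for Lss without Rsf1Δ replicate 1 or WstfΔ replicate 2 (edgeR adjusted p = 0.0127 and 0.0121).

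Primitive endoderm markers moved in the same lines as the cholesterol genes and in others. Of 10 listed markers, 8 fell in WstfΔ and 10 in each of BptfΔ, the libraries labelled Cecr2Δ, Rsf1Δ and Tip5Δ. Of all genes tested, 16.4% rose and 18.3% fell in WstfΔ, and 21.4% and 20.2% did in BptfΔ. These shares were 9.52% and 8.83% in the labelled Cecr2Δ libraries and 7.45% and 13.1% in Rsf1Δ. In Tip5Δ they were 2.84% and 6.23%, and in Acf1Δ 15.1% and 16.7%. The same shares stand beside every marker count that follows. In Rsf1Δ and Tip5Δ none of the 7 cholesterol genes was called. The summed marker level was 514 to 545 CPM in WstfΔ and 571 to 581 in Rsf1Δ against 1520 to 1700 in WT of batch A. It was 366 to 369 in Tip5Δ against 1620 to 1680 in WT, 86.3 to 89.8 in BptfΔ against 869 to 919, and 134 to 144 in the labelled Cecr2Δ libraries against 414 to 456. In Acf1Δ it was 999 to 1170 against 935 to 1030, with 1 marker lower and 3 higher. The mESC markers rose in 6 of 6 cases in WstfΔ and Rsf1Δ, 5 of 6 in BptfΔ and 4 of 6 in the labelled Cecr2Δ libraries. In Tip5Δ 0 of 6 were called in either direction (median log2 fold change -0.041), and in Acf1Δ 2 rose and 2 fell. Trophectoderm markers were lower as well, with 4 of the 5 tested called lower in every line but Tip5Δ, which had 3, and the untested marker, Elf5, at 0 counts in both WstfΔ libraries. Their summed level was 41.7 to 42.3 CPM in WstfΔ and 64.6 to 65.9 in Rsf1Δ against 394 to 400 in WT, 44.5 to 48.4 in BptfΔ against 132 to 134, and 27.8 to 29.3 in the labelled Cecr2Δ libraries against 80.6 to 100. It was 168 to 185 in Tip5Δ against 306 to 313 and 145 in both Acf1Δ libraries against 200 to 210. This sum was mostly that of Krt8 and Krt18, at means of 182 and 193 normalized CPM in WT of batch A. Cdx2 and Gata3 were at 0.957 and 2.17 there. Of 5 mesoderm markers 4 were tested, and single genes went both ways. In BptfΔ Kdr rose by 2.67 and T was at -4.44 on the log2 scale, with a summed list level of 15.1 to 17.0 CPM against 6.29 to 6.61, and in WstfΔ Eomes rose by 1.05 and Kdr was at -1.55, with a sum of 9.24 to 9.91 against 6.76 to 7.74. The lower values are near the floor. T was at a mean of 0.0588 normalized CPM in BptfΔ against 1.38 in WT, and Kdr at 0.654 in WstfΔ against 1.92. In the other 4 lines the sum was at most 8.14, and Kdr alone was called, higher in the labelled Cecr2Δ libraries and lower in Tip5Δ. Of 4 neural markers, 1 rose and 2 fell in WstfΔ and BptfΔ, 2 rose and 1 fell in Rsf1Δ and Tip5Δ, 1 rose in the labelled Cecr2Δ libraries and 2 fell in Acf1Δ. Their summed level, 71.4 to 124 CPM over the lines, was mostly that of Nes and Tubb3. It was 75.7 to 79.6 in WstfΔ and 101 to 102 in Rsf1Δ against 138 to 146 in WT, and 71.4 to 71.6 in Acf1Δ against 97.4 to 103. In BptfΔ, at 100 to 106, it overlapped WT at 104 to 114. It was higher in Tip5Δ, at 121 to 124 against 95.1 to 102, and in the labelled Cecr2Δ libraries, at 106 to 119 against 82.1 to 94.8. The part of these shifts in the cholesterol gene values was not tested.

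The 16 other sterol synthesis enzymes on the list moved mostly upward in WstfΔ. There 11 of 16 rose and 0 fell, where 16.4% of all genes rose and 18.3% fell, with a median log2 fold change of 0.43 against -0.026 for all genes. Pmvk, phosphomevalonate kinase, stood at 65.4 ± 3.42 normalized CPM against 36.0 ± 0.307 in WT (SD, n = 2 each), a rise of 0.86 on the log2 scale (edgeR adjusted p = 4.66e-08). Acat2, which makes acetoacetyl-CoA, and Msmo1, the sterol C4-methyl oxidase, rose by 0.65 and 0.64 on the log2 scale (edgeR adjusted p = 7.72e-08 and 1.75e-07). In BptfΔ 8 of 16 rose and 2 fell, against 21.4% and 20.2% of all genes that rose and fell (median 0.32), with Ebp, a sterol isomerase, at 0.83, Msmo1 at 0.75 and Pmvk at 0.56 (edgeR adjusted p = 1.52e-07, 5.44e-09 and 2.44e-05). Of the 2 that fell there, Dhcr7, a reductase of the last steps, was at -0.42 (edgeR adjusted p = 0.00191) and is named after its value was seen. Only 1 of the 2 was called without WT replicate 2 of batch C or either BptfΔ library.

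In the labelled Cecr2Δ libraries 5 of the 16 enzymes rose and 0 fell, against 9.52% and 8.83% of all genes (median 0.13), led by Nsdhl, Dhcr7 and Cyp51, lanosterol demethylase, at 0.40, 0.37 and 0.34 (edgeR adjusted p = 6.77e-05, 0.000259 and 0.000145). In Acf1Δ 3 rose and 1 fell, against 15.1% and 16.7% of all genes (median 0.13). Acat2 and Fdps, farnesyl diphosphate synthase, were among the higher ones, at 0.44 and 0.36 (edgeR adjusted p = 3.51e-05 and 0.000344), while Sc5d, named after its value was seen, was at -0.29 (edgeR adjusted p = 0.00572) and no longer passed without WT replicate 1 of batch E or the batch C libraries, among other settings. Acat2 and Fdps, which precede Fdft1 in the pathway, were thus higher in Acf1Δ, where Fdft1 and Hmgcs1 were lower. Batch E had the lowest WT means of the 5 batches for Acat2 and Fdps, 48.3 and 44.4 normalized CPM. The Acf1Δ means, 65.3 and 57.1, lay within the ranges of all WT libraries, 47.8 to 70.7 and 43.4 to 73.3. In Rsf1Δ Acat2 rose (0.34, edgeR adjusted p = 0.00088) and no other of the 16 passed, against 7.45% and 13.1% of all genes that rose and fell, and 0 passed without either WT library of batch A or without Rsf1Δ replicate 2. In Tip5Δ Lbr rose (0.26, edgeR adjusted p = 0.00386) and Ebp fell (-0.50, edgeR adjusted p = 0.00155), which is 1 of 16 in each direction against 2.84% and 6.23% of all genes, with a median of -0.036. Lbr no longer passed without any 1 of the 4 batch B libraries or when scaled by library size only, and Ebp no longer passed without WT replicate 2 of batch B or Tip5Δ replicate 1.

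**Figure D4:**
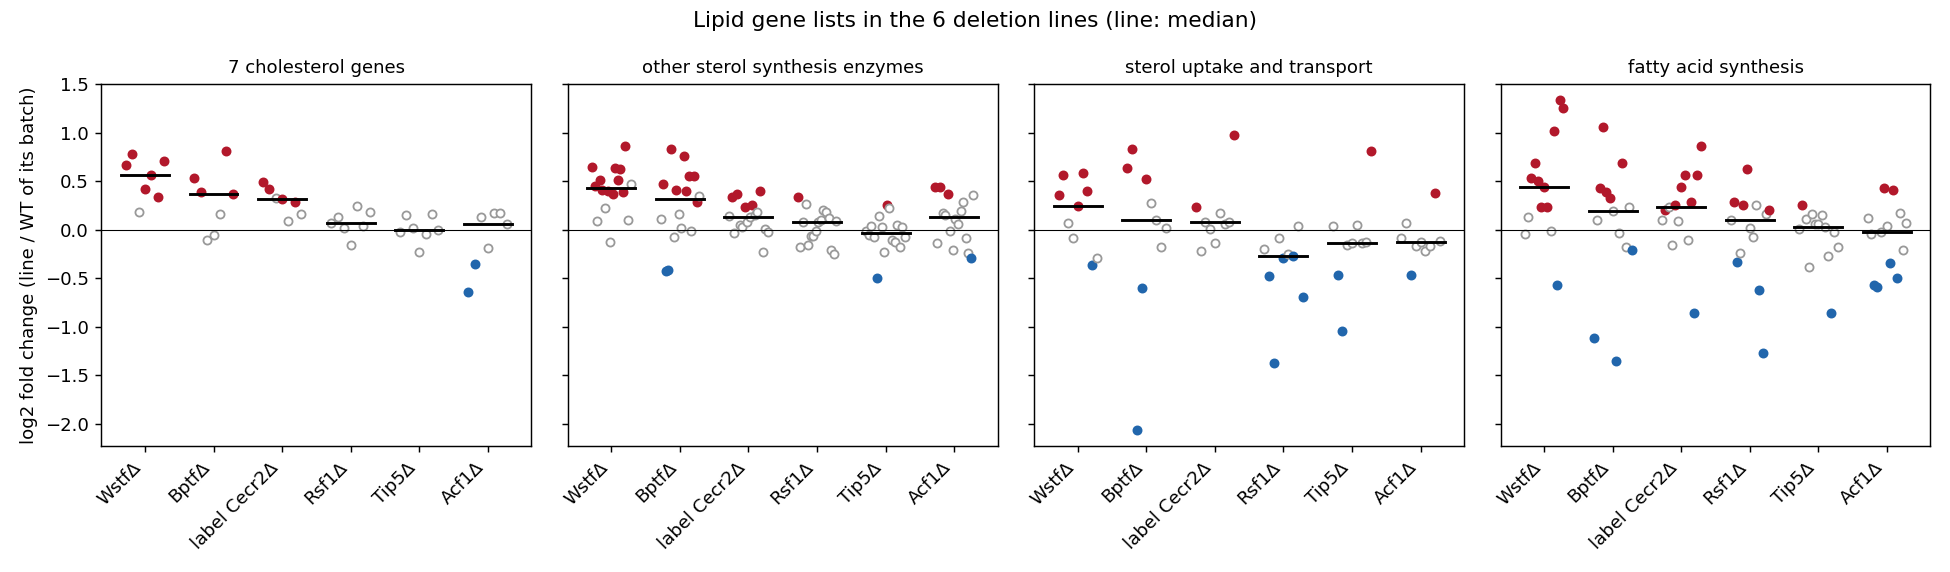
Log2 fold change (y axis) in each of the 6 deletion lines (x axis) for the 7 cholesterol genes, the 16 other sterol synthesis enzymes, 9 sterol uptake and transport genes and 13 fatty acid synthesis genes, with 1 point per gene, red for called higher, blue for called lower, open for not called and black lines for medians. In WstfΔ the medians are 0.57, 0.43, 0.25 and 0.44, and in Rsf1Δ the uptake list lies lowest, at -0.28.

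Of 9 sterol uptake and transport genes, 5 rose and 1 fell in WstfΔ, against 16.4% and 18.3% of all genes (median 0.25). Scarb1, the receptor for high-density lipoprotein, and Stard4, a sterol carrier, rose by 0.59 and 0.40 on the log2 scale (edgeR adjusted p = 9.4e-06 and 2.82e-05). The 1 that fell there was Tmem97, at -0.36 (edgeR adjusted p = 0.00828), named after its value was seen. In BptfΔ 3 rose and 2 fell (median 0.097), near the 21.4% and 20.2% of all genes that rose and fell there. Lipa, the lysosomal acid lipase that frees cholesterol from taken-up esters, was at 2.41 ± 0.144 normalized CPM against 10.1 ± 0.0498 in WT (SD, n = 2 each), which is -2.06 on the log2 scale (edgeR adjusted p = 6.78e-10).

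In Rsf1Δ 0 of the 9 uptake and transport genes rose and 5 fell, against 7.45% and 13.1% of all genes (median -0.28). Lipa and the lipoprotein receptor Vldlr were at -1.37 and -0.69 (edgeR adjusted p = 3.04e-08 and 0.00576). Npc2 and Stard4, named after their values were seen, were at -0.29 and -0.28 (edgeR adjusted p = 0.00116 and 0.00264). In Tip5Δ 1 rose, Vldlr at 0.81, and 2 fell, among them Lipa at -1.05 (edgeR adjusted p = 7.68e-05 and 3.3e-06), against 2.84% and 6.23% of all genes. In the labelled Cecr2Δ libraries 2 rose and 0 fell, against 9.52% and 8.83% of all genes, with Vldlr at 0.98 (edgeR adjusted p = 1.4e-05). In Acf1Δ 1 rose, Tmem97 at 0.37, and 1 fell, Lipa at -0.46 (edgeR adjusted p = 0.00402 and 0.00497), against 15.1% and 16.7% of all genes. Lipa was thus called lower in 4 of the 6 lines. Vldlr varied 5.38-fold between WT libraries, from 1.65 to 8.90 normalized CPM. Its means in Rsf1Δ and the labelled Cecr2Δ libraries, at 2.51 and 3.64, lay within that range. In Tip5Δ its mean, 14.95, lay above it.

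Of 10 genes that regulate SREBP, 1 to 4 were called in each line. In WstfΔ Srebf1, which encodes the paralogue SREBP1, and Scap rose by 0.48 and 0.41 on the log2 scale (edgeR adjusted p = 0.000164 and 0.000884). In Tip5Δ Srebf1 fell, at -0.46 (edgeR adjusted p = 0.00104). The ubiquitin ligase Rnf145 was at -0.40 in BptfΔ and at 0.21 in Rsf1Δ (edgeR adjusted p = 2.51e-06 and 0.00484). Over the 10 genes, 2 rose and 1 fell in WstfΔ, 1 and 1 in BptfΔ and Rsf1Δ, 0 and 1 in Tip5Δ and the labelled Cecr2Δ libraries, and 3 and 1 in Acf1Δ. Of all genes, 34.7% were called in either direction in WstfΔ, 41.6% in BptfΔ, 20.6% in Rsf1Δ, 9.07% in Tip5Δ, 18.4% in the labelled Cecr2Δ libraries and 31.8% in Acf1Δ.

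Of 7 sterol efflux and storage genes, which answer to sterol excess through the LXR receptors or esterify cholesterol, 6 were tested. Abcg1, a sterol exporter, rose in WstfΔ, to 14.03 ± 0.799 normalized CPM from 4.67 ± 0.282 in WT (SD, n = 2 each), by 1.59 on the log2 scale (edgeR adjusted p = 1.07e-10). It also rose in the labelled Cecr2Δ libraries, to 17.0 ± 0.552 from 5.48 ± 0.561 (SD, n = 3 each), by 1.63 (edgeR adjusted p = 1.04e-13). The exporter Abca1 rose in WstfΔ, BptfΔ and Tip5Δ, at 1.05, 1.68 and 0.65 (edgeR adjusted p = 4.33e-07, 2.52e-11 and 0.00103), and fell in the labelled Cecr2Δ libraries, at -0.45 (edgeR adjusted p = 0.00157). Soat1, which esterifies cholesterol for storage, fell in WstfΔ, BptfΔ, Rsf1Δ, Tip5Δ and the labelled Cecr2Δ libraries, at -0.69, -1.83, -1.004, -0.42 and -0.21 (edgeR adjusted p = 2.46e-09, 1.21e-17, 2.63e-12, 1.83e-05 and 0.00574). Soat1 also varied 3.23-fold between WT libraries, from 50.5 to 163 normalized CPM. Its means in WstfΔ, Rsf1Δ and Tip5Δ, at 85.3, 68.8 and 116, lay within that range. Those in BptfΔ and the labelled Cecr2Δ libraries, at 40.65 and 45.7, lay below it. In all, 2 of 6 rose and 1 fell in WstfΔ, against 16.4% and 18.3% of all genes, and in BptfΔ, against 21.4% and 20.2%, where Nr1h3 (an LXR gene) was the other that rose, at 1.27 (edgeR adjusted p = 0.000501). Nr1h3 was at low levels, with means of 2.875 normalized CPM in BptfΔ and 1.19 in its WT. In the labelled Cecr2Δ libraries 1 rose and 2 fell, against 9.52% and 8.83%, in Tip5Δ 1 rose and 1 fell, against 2.84% and 6.23%, and in Rsf1Δ 0 rose and 1 fell, against 7.45% and 13.1% of all genes. In Acf1Δ 0 rose and 1 fell, Mylip at -0.66 (edgeR adjusted p = 0.00171), against 15.1% and 16.7%. The single genes called in Rsf1Δ and Acf1Δ are near those shares.

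The 13 fatty acid synthesis genes, which SREBP1 is known to activate, rose in WstfΔ more often than they fell. There 9 rose and 1, Me1, fell, against 16.4% and 18.3% of all genes (median 0.44), and the rises of 3 passed the 2-fold minimum. Scd1 and Scd2, stearoyl-CoA desaturases, were at 166 ± 4.42 and 708 ± 22.9 normalized CPM against 65.9 ± 0.634 and 297 ± 3.83 in WT (SD, n = 2 each), rises of 1.33 and 1.25 on the log2 scale (edgeR adjusted p = 1.06e-13 and 8.59e-16). Lpin1, a phosphatidate phosphatase, was the third, at 1.02 (edgeR adjusted p = 7.65e-11). In the labelled Cecr2Δ libraries 7 rose and 1 fell, against 9.52% and 8.83% of all genes (median 0.23), with Scd2 at 0.86, Scd1 at 0.57 and Me1, malic enzyme, at -0.86 (edgeR adjusted p = 5.8e-14, 4.39e-08 and 2.14e-09). In BptfΔ 5 rose and 3 fell, against 21.4% and 20.2% of all genes (median 0.19). Fads2, a desaturase, and Acaca, acetyl-CoA carboxylase, were at -1.36 and -1.119 on the log2 scale, whereas Acss2, acetyl-CoA synthetase, rose by 1.06 (edgeR adjusted p = 2.4e-14, 2.29e-09 and 4.38e-07).

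In Rsf1Δ 4 of the 13 fatty acid genes rose and 3 fell, against 7.45% and 13.1% of all genes (median 0.10), with Me1 at -1.27, Lpin1 at -0.63 and Elovl6, an elongase, at 0.63 (edgeR adjusted p = 2.8e-11, 2.02e-06 and 1.55e-08). In Acf1Δ 2 rose and 4 fell, against 15.1% and 16.7% of all genes (median -0.021), with Acss2 at -0.59, Acsl3 at -0.57 and Lpin1 at -0.50 (edgeR adjusted p = 0.000832, 1.4e-05 and 1.16e-05). Tip5Δ had 1 in each direction, against 2.84% and 6.23% of all genes, Acly at 0.26 and Me1 at -0.86 (edgeR adjusted p = 0.00726 and 4.08e-08). Me1 varied 3.22-fold between WT libraries, from 15.2 to 49.1 normalized CPM. Of its called values, only that in the labelled Cecr2Δ libraries had a line mean outside this range.

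The 7 genes did not vary alike over the 24 libraries. For each gene, the log2 CPM of each library minus the mean of the WT libraries of its batch was correlated between genes. The 21 pairs had Pearson's r from 0.059 for Sqle and Idi1 to 0.94 for Hmgcs1 and Fdft1, with a median of 0.56, and Lss and Srebf2 stood at 0.91. Sqle and Insig1 were at 0.20. These values are descriptive, since the libraries of a line share their clone and batch. Of 9835 other genes with a mean log2 CPM of at least 3, the 10 whose values followed the mean of the 7 most closely included Stat4 (r = 0.968), Lrrc34 (0.967), Nfatc4 (0.954), Bmf (0.948), Nipal3 (0.947), Rtkn2 (0.947), Pgpep1 (0.943), Trappc9 (0.942) and Trak1 (0.941). None of these 10 was on the list of other sterol synthesis enzymes. Of the listed lipid genes, Scd1 ranked 13 (r = 0.935), Elovl5 ranked 57 (r = 0.894) and Cyp51 ranked 97 (r = 0.877). With Spearman's rank correlation 3 of the 10 genes remained among the nearest 10, and 4 remained without the batch C libraries.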

How the data were processed

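RNA-seq counts of 24 libraries were analysed. The authors aligned reads to mm10 by spliced alignment in QuasR, for which the submitters' processing notes also name HISAT2, and deposited raw counts per gene of the UCSC knownGene annotation, without normalization. The deposited table also gives a gene width in bases, used here only for levels per kilobase. The labels name a stranded TruSeq mRNA kit and the study's methods the TruSeq RNA Library Prep Kit v2. Strand and multi-mapping settings of the counting are not given in the sources used here.

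Groups and batches came from the labels. Gene IDs were joined to RefSeq GRCm38.p6 (24570 of 24594 matched), which also gave coordinates and promoter windows. R 4.3.3 with edgeR 4.0.16 filtered genes with filterByExpr by genotype, scaled with TMM, and fitted the legacy quasi-likelihood model with batch and genotype. The SE was taken as the absolute value of the log2 fold change over the square root of F. Total counts were 13.4 to 36.7 M per library. Replicate libraries differed by more than counting noise (chi-square per gene 1.38 to 20.4 over 15 pairs), so each was counted as 1 sample.

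In a test on simulated data, 96 of 200 genes (48.0%) given a change of 0.5 on the log2 scale were recovered in WstfΔ, 109 (54.5%) in Rsf1Δ, 101 (50.5%) in Tip5Δ, 86 (43.0%) in BptfΔ, 122 (61.0%) in the labelled Cecr2Δ libraries and 107 (53.5%) in Acf1Δ, with 0 to 7 false calls per line. The 200 genes were drawn from all genes tested, in 1 line at a time, and are fewer than were called in any line of the data. The rates therefore do not measure the power of the tests reported here. The genes, lists and tests were chosen with earlier results of these data known. Besides the 7 genes and the targeted genes, the text names from each list and line at most the 3 called genes with the largest absolute log2 fold change whose libraries all lay beyond those of WT, and the 10 most similar genes. Named in addition, after their values were seen, are Dhcr7 in BptfΔ, Sc5d in Acf1Δ, Tmem97 and Me1 in WstfΔ, Npc2 and Stard4 in Rsf1Δ, and single marker genes. Some genes that the lists count are not reported here by name. Alternatives were DESeq2 1.42.0, edgeR's newer fit, other scalings, filters and thresholds, each line fitted apart with the WT of its batch, a replicate block, leaving out each library, and, chosen after seeing the data, leaving out batch C. Replicate numbers in the labels were checked for pairing.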

Additional observations from a re-analysis of the deposited data

Results flagged for a closer look

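The 14 differences between lines named in the report passed edgeR's quasi-likelihood test of the difference itself, 10 of them at an adjusted p under 0.01 with no minimum, a rule applied gene by gene to the pairs WstfΔ with Rsf1Δ and WstfΔ with BptfΔ, and 4 also with an absolute log2 difference over 1, applied to all 15 pairs. With no minimum, 44 of 105 values over the 15 pairs passed, so the 14 are not all that differed. For Rsf1Δ minus WstfΔ, which share WT libraries, the log2 differences were -0.65 for Hmgcs1, -0.29 for Sqle, -0.58 for Insig1, -0.60 for Fdft1, -0.33 for Lss and -0.53 for Srebf2, with edgeR adjusted p-values from 1.31e-08 for Hmgcs1 to 0.000818 for Lss. For WstfΔ minus BptfΔ they were 0.39 for Hmgcs1, -0.48 for Sqle, 0.48 for Insig1 and 0.40 for Lss. For WstfΔ minus Acf1Δ they were 1.14 for Hmgcs1 and 1.31 for Fdft1. Fdft1 also differed by 1.18 for BptfΔ minus Acf1Δ and by 1.13 for the libraries labelled Cecr2Δ minus Acf1Δ. Both values of Acf1Δ were measured against WT libraries of batch E, where Fdft1 was at 148 and 131 normalized CPM while the 9 other WT libraries reached at most 92.1.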

How the results depend on the processing

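Of the log2 fold changes and differences of single genes under the alternatives, 1697 kept their side of the threshold, 13 passed newly, 19 no longer passed and 0 called values changed sign. Counts of the 7 genes that rose stayed at 6 in WstfΔ and 4 in BptfΔ and the labelled Cecr2Δ libraries with only the own WT libraries and with the replicate block, and in WstfΔ and the labelled Cecr2Δ libraries also without the batch C libraries. In the labelled Cecr2Δ libraries 6 rose at an adjusted p under 0.05 (Idi1 and Srebf2 added), 5 with no filter (Idi1 added) and 5 without WT replicate 2 of batch D (Srebf2 added). The count in Rsf1Δ went from 0 to 1 (Lss) with DESeq2, with median-ratio size factors, with only its own WT libraries, without batch C and at an adjusted p under 0.05, and ranged from 0 to 1 when single libraries were left out, with 1 without WT replicate 1 of batch D or either Acf1Δ library. With only its own WT libraries Tip5Δ had 2 higher and 1 lower, and Acf1Δ 1 lower instead of 2. At an adjusted p under 0.05, 1 gene was higher in Acf1Δ, and this count ranged from 0 to 1 when single libraries were left out, with 1 without Acf1Δ replicate 2. With the 2-fold minimum of the DEG rule, 0 of the 7 genes and 0 of the 16 other enzymes passed in any line and direction.

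For the 16 other enzymes, the count of higher ones in Rsf1Δ went from 1 to 2 with no filter, with only its own WT libraries and at an adjusted p under 0.05, and ranged from 0 (without either WT library of batch A or Rsf1Δ replicate 2) to 2 (without WT replicate 2 of batch D) when single libraries were left out. In Tip5Δ the higher ones were 0 with library size only and 2 with only its own WT libraries or at an adjusted p under 0.05, and ranged from 0 (without any 1 of the 4 batch B libraries) to 1 when single libraries were left out, as did the lower ones (0 without WT replicate 2 or Tip5Δ replicate 1). The lower ones in the labelled Cecr2Δ libraries were 1 with no filter and at an adjusted p under 0.05, and ranged from 0 to 1 (without WT replicate 2 of batch D) when single libraries were left out, and in BptfΔ they ranged from 1 (without WT replicate 2 of batch C or either BptfΔ library) to 2. In Rsf1Δ 1 was lower at an adjusted p under 0.05. In Acf1Δ the lower ones were 0 with no filter, with only its own WT libraries, without batch C and with the replicate block, 2 at an adjusted p under 0.05, and ranged from 0 (without WT replicate 1 of batch E) to 2 (without WT replicate 2 of batch D) when single libraries were left out. The cause of these shifts was not tested.

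No pairing by replicate number was seen, since the deviations of same-numbered libraries of a line and its WT correlated between -0.067 and 0.045 over 13 pairs. Where a group held only 2 libraries, both pairs gave the same value by construction. Such correlations cannot show that libraries were not paired. The replicate block changed no count of the 7 genes. Among differences between lines, those of WstfΔ minus BptfΔ for Lss, Hmgcs1 and Insig1 and of Rsf1Δ minus WstfΔ for Lss and Sqle no longer passed when some single libraries of batches A or C were left out. BptfΔ has no library outside batch C, so its values could not be given without it. Idi1 had the lowest counts and the largest SEs of the 7 genes.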
